A study of Homo sapiens with 24 samples.

Results

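In the squamous lung carcinoma cell line SK-MES-1, 22 protein-coding genes were at most slightly higher in TGFβ-stimulated than in untreated cells after 8 h. After 48 h they stood at least 2.5 times higher in the stimulated cells. They were selected on these values. Transcript abundances in TPM, a unit corrected for transcript length and library depth, were summed per gene, and a gene was kept where the mean TPM of 1 or more of the 8 groups reached 5. The ratio of the arms was the mean TPM with TGFβ plus 0.5, divided by the mean TPM without it plus 0.5. The members had a ratio of at most 1.3 at 8 h and of at least 2.5 at 48 h. They are 22 of the 11317 protein-coding genes past the level limit, among 34834 genes in all. The ratios at 8 h and 48 h chose the members and are given as a description with no test, whereas the arms were tested in the libraries of 24 h and 0 h.

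The study followed SK-MES-1 cells, an established line, with RNA-Seq to find what TGFβ changes over time. The control groups were left untreated, and the cells of the TGFb groups received 2 ng/ml TGFβ1. All cells, untreated ones included, had been kept without growth factors and serum for 3 h before the start. The study's methods give the depleted medium for the TGFβ1 stimulation as well, and describe no return of serum during the RNA-Seq course. RNA was taken at 0, 8, 24 and 48 h with 3 biological replicates per arm and time, which gives 24 libraries in 8 groups of 1 cell line in culture, without stroma or immune cells. Bulk RNA cannot tell a change in the number of cells that express a gene from a change in RNA per cell, and this holds for each value below. Library names carry 4 codes, 1 for each arm at 0 h and 8 h and 1 for each arm at 24 h and 48 h. Within 8 h, 24 h or 48 h the code and the stimulation therefore cannot be told apart. The 0 h libraries share the code of their arm with those of 8 h, but not with those of 24 h and 48 h. The codes change between 8 h and 24 h, the span in which the ratio of most members rose.

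TGFβ is a secreted cytokine that binds a pair of serine-threonine kinase receptors on the cell surface. The receptors phosphorylate SMAD proteins, which enter the nucleus and act on target genes directly, often within the first hours. Further genes follow later, when products of the first ones, such as transcription factors, secreted ligands and matrix, act in turn. In carcinoma cells TGFβ is known for driving epithelial-mesenchymal transition, extracellular matrix production and invasion. Genes that start late can therefore be of many kinds, and the 22 members were grouped by where their products act: 7 are secreted or matrix proteins, 7 lie at the cell surface or in membranes and 8 act inside the cell.

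The libraries held 46613589 to 77964234 estimated counts each (median 54120879), and 89.8% of the 173259 transcripts were matched to genes. The members had between 27 and 22527 estimated counts per library. As a check of the labelled cell line, of 5 simple epithelial markers KRT8, KRT18 and KRT19 stood at 242 TPM or more in every library. EPCAM ran from 21.6 to 37.0 TPM and CDH1 from 0.969 to 5.74 TPM over the libraries. Of 10 squamous and basal markers KRT5, KRT6A, KRT14 and DSG3 stayed under 1 TPM throughout. The other 6 reached 71.4 TPM (KRT17), 58.5 TPM (PKP1), 37.5 TPM (TP63), 21.0 TPM (KRT15), 8.17 TPM (SOX2) and 1.55 TPM (DSC3) in the highest library. KRT17 had a mean at 48 h of 5.41 TPM without and 70.5 TPM with TGFβ, and PKP1, KRT15 and DSC3 were also higher with it. SOX2 (5.23 TPM without and 0.432 TPM with TGFβ) and TP63 (36.8 and 26.8 TPM) were lower with it at 48 h. Of 7 fibroblast markers, a list that holds the member PDGFRB, 6 reached 1 TPM. The summed TPM at 24 h was 251 to 318 without and 1253 to 1758 with TGFβ, most of it COL1A1, while COL1A2 stayed under 1 TPM in every library. At 48 h COL1A1 and PDGFRB were higher with TGFβ, and PDGFRA had a mean of 10.7 TPM in both arms. DCN (12.2 TPM without and 1.47 TPM with TGFβ), LUM (23.3 and 9.19 TPM) and COL3A1 (8.41 and 6.97 TPM) were lower with it. The part of these genes in the results was not tested. Of 4 endothelial markers CDH5, VWF and TEK, and of 5 immune markers CD3E, LYZ and MS4A1, stayed under 1 TPM in every library, whereas PECAM1 reached 4.14 TPM, CD68 40.2 TPM and PTPRC 2.1 TPM in the highest one. Libraries numbered 2 at 24 h stood apart from their group in both arms for some genes, among them the member FIBCD1. Without the libraries numbered 2 at 0 h and 24 h, an alternative chosen after the data were seen, 21 members were called higher at 24 h as with them.

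**Figure D1:**
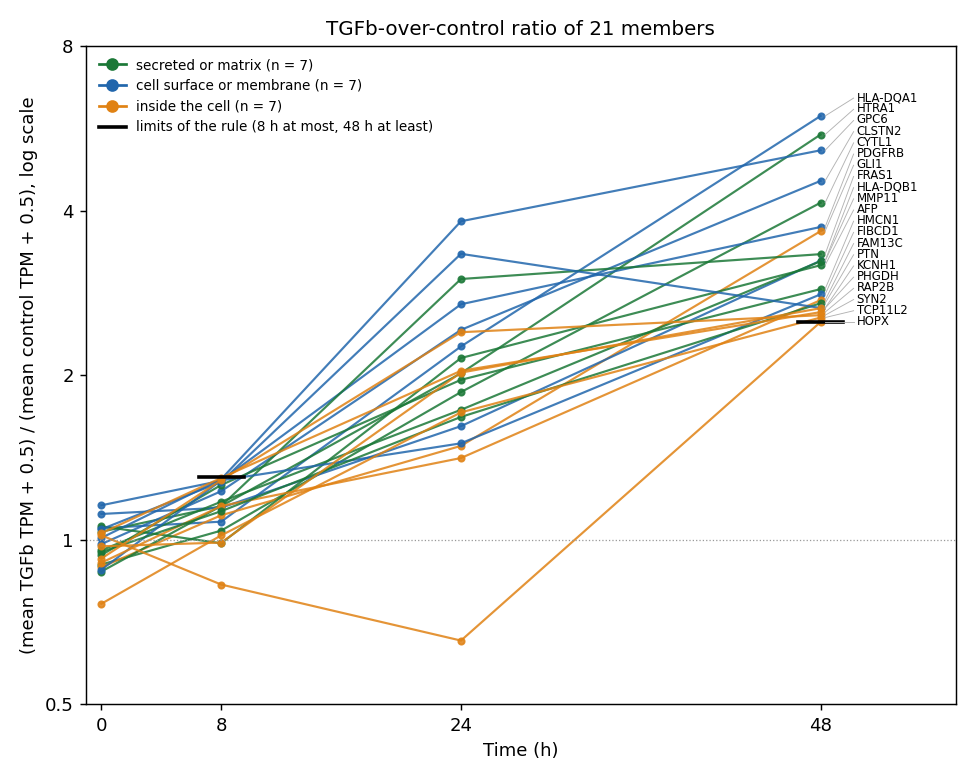
Ratio of the TGFβ arm to untreated cells, on a log scale, at 0, 8, 24 and 48 h for 21 of the 22 members, coloured by where the product acts, with black bars at the limits of 1.3 and 2.5 that chose them. The ratios lay between 0.763 and 1.16 at 0 h and between 0.654 and 3.82 at 24 h, and HOPX was below 1 at 24 h.

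A gain over the course was seen in most but not all members. Within the TGFβ arm, 14 of 22 had at 48 h at least 2 times their own 0 h level. CLSTN2 stood at 15 times and MMP11 at 13.8 times its 0 h level, followed by CYTL1 at 7.94, PDGFRB at 7.0, HLA-DQA1 at 5.9 and HOPX at 5.88 times (TPM plus 0.5). The other 8 members, among them AFP, FIBCD1, PTN, KCNH1, PHGDH, RAP2B and SYN2, stayed under that mark, and in each of them untreated cells were below their own 0 h level at 48 h. PHGDH was at 1.04 times its 0 h level with TGFβ and at 0.381 times without it. AFP stood below its 0 h level in both arms, at 0.416 times with TGFβ and at 0.138 times without it. A gene with a stimulated level under 2 times that of 0 h could meet the limit of 2.5 at 48 h only with a lower untreated level, so that the loss in untreated cells at 48 h follows from the rule.

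**Figure D2:**
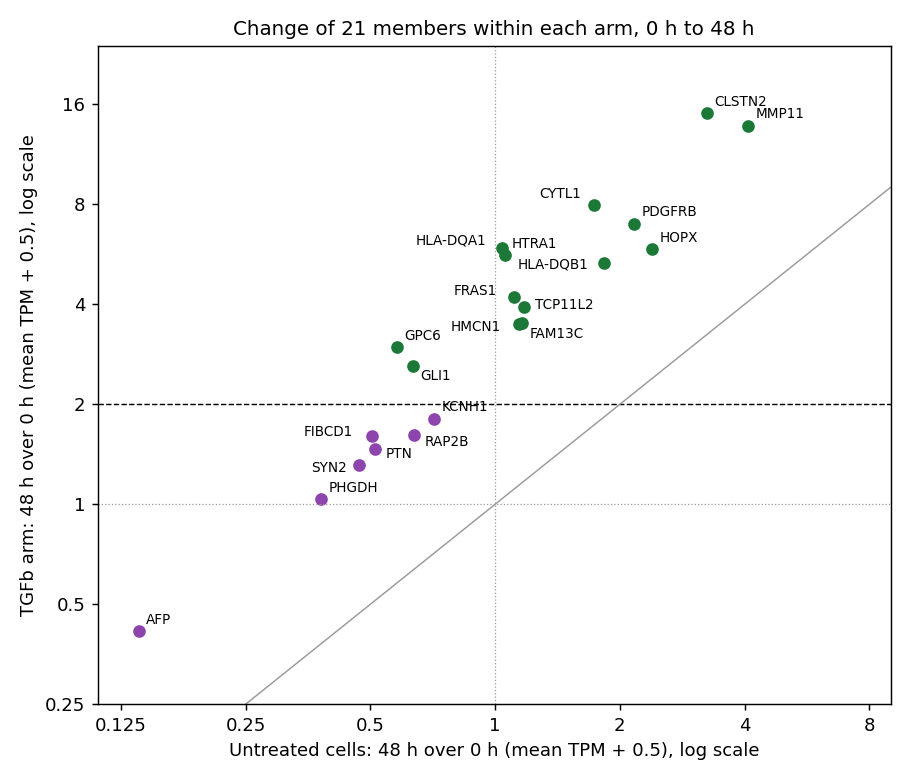
Level at 48 h over level at 0 h (mean TPM plus 0.5, log scales) in untreated cells on the horizontal axis and in the TGFβ arm on the vertical axis, 1 point for each of 21 members, with a dashed line at 2 and the diagonal in grey. All 21 points lie above the diagonal, 14 in green reach 2 with TGFβ, and AFP is the 1 point below 1 on both axes.

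At 24 h, in libraries that the ratios of the rule did not use, 21 of the 22 members were called higher in the TGFβ arm (limma voom, adjusted p below 0.01 over 17453 tested genes), where 15.4% of all tested genes were called in that direction. Of the 11317 protein-coding genes past the level limit, 20.0% were called higher. The 1 member called lower was HOPX, and 13.8% of all tested genes were called lower. The level limit of KCNH1 was reached in TGFβ-treated cells at 24 h alone, so that its 24 h difference is not independent of the rule. Without it, 20 of 21 were called higher, and among the 15 members with 5 TPM in an untreated, 0 h or 8 h group the count was 15 of 15. The median log2 difference of the 22 members was 1.04, beside -0.02 over all tested genes. In 19 members every TGFβ library of 24 h lay above every untreated one, as in 17.2% of all tested genes; FIBCD1 and HOPX were among the exceptions. The test was run on summed estimated counts, in which long transcripts weigh more than in TPM, so that the log2 difference and the ratio of TPM can differ for genes with transcripts of unequal length, among them CLSTN2, KCNH1, GLI1 and HLA-DQA1. With length-scaled counts their log2 differences were 1.498, 2.15, 0.71 and 2.05. The share of genes called depends on the scaling. With scaling to 4 reference genes of the study's qRT-PCR 48.6% of all tested genes were called higher and 4.54% lower, and the median of all genes moved to 0.34 on the log2 scale; with library totals 10.9% were called higher and 21.0% lower, and with upper-quartile factors 12.6% and 17.4%. The members called higher numbered 21, 20 and 20 under these scalings.

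At 0 h, 0 of 22 members differed between the arms in either direction (limma voom), and 0% of all tested genes did. At an unadjusted p below 0.05, 1 of 22 members, FRAS1, passed, beside 800 of all 17453 tested genes. edgeR also called 0 members and 0 genes, and DESeq2 called 0 members and 8 genes.

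**Figure D3:**
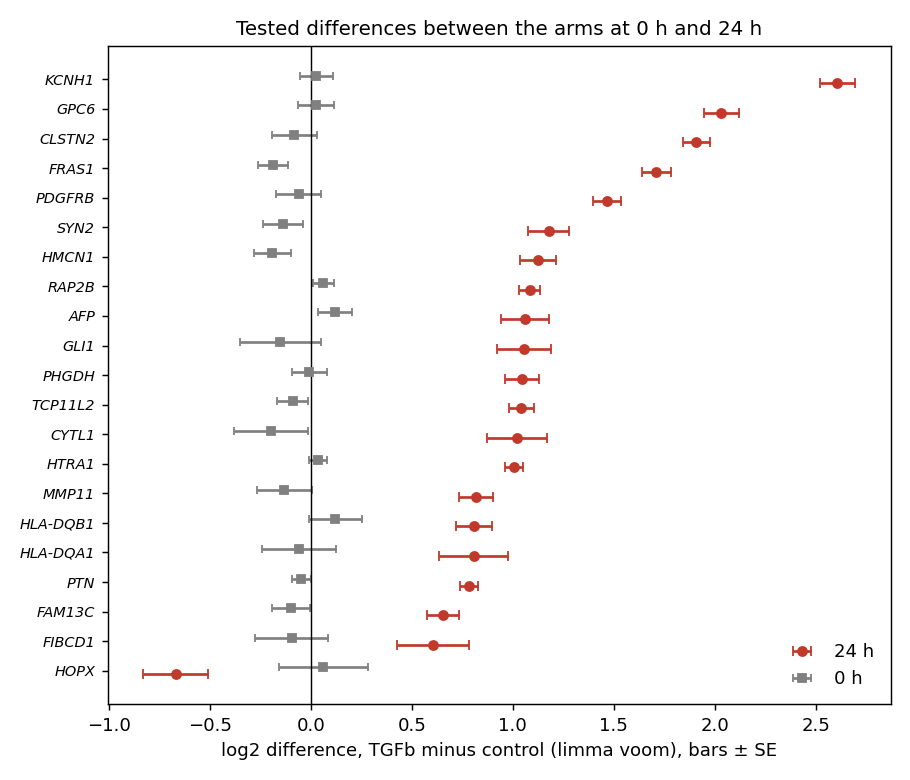
Log2 difference between the TGFβ arm and untreated cells with its standard error at 24 h (red circles) and at 0 h (grey squares) for 21 of the 22 members, from limma voom with 3 libraries per group. At 24 h the values run from -0.67 for HOPX to 2.61 for KCNH1, whereas at 0 h each lies within 0.20 of zero.

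Among the 7 secreted and matrix proteins, HTRA1 had the highest level, and at 48 h with TGFβ the highest of all members. HTRA1 (ENSG00000166033, chr10:122458551-122514907, plus strand of GRCh38) encodes a secreted serine protease of the HtrA family that cleaves matrix proteins. Untreated cells held HTRA1 at 81.2 to 90.3 TPM in all 12 libraries. With TGFβ the libraries read 93.1, 94.7 and 101 TPM at 8 h, 161, 175 and 176 TPM at 24 h and 497, 497 and 493 TPM at 48 h. The arms overlapped at 0 h and were apart from 8 h on, first by a small margin. At 24 h the log2 difference was 1.01 ± 0.04 (SE, adjusted p = 7.48e-14), and the mean at 48 h was 496 ± 2.2 TPM (SD, n = 3) against 89.6 ± 0.691 TPM. HTRA1 is also 1 of the 14 genes tested here that the study selected on these samples as candidates, so its direction there is not independent evidence.

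MMP11 (ENSG00000099953, chr22:23768226-23784316, plus strand), a matrix metalloproteinase known as stromelysin-3 and usually found in the fibroblasts around carcinomas, was higher at 24 h than at 0 h in both arms. Its libraries at 48 h held 10.7, 9.87 and 10.2 TPM without and 34.7, 35.8 and 32.5 TPM with TGFβ, after 1.94 to 2.31 TPM and 1.68 to 2.22 TPM at 0 h. Untreated cells were called higher at 24 h than at 0 h (log2 difference 1.33 ± 0.12, SE, adjusted p = 3.10e-09), and the TGFβ arm more so (2.28 ± 0.11, adjusted p = 3.74e-13). Between the arms at 24 h the log2 difference was 0.82 ± 0.09 (adjusted p = 1.15e-07), with 5.55, 5.03 and 5.61 TPM in untreated cells against 9.8, 8.39 and 10.9 TPM.

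A pair of very large matrix proteins, FRAS1 and HMCN1, were not called in untreated cells between 0 h and 24 h, except that FRAS1 was called lower with scaling to 4 reference genes. FRAS1 (ENSG00000138759, chr4:78057323-78544269, plus strand) is a component of epithelial basement membranes, and its untreated libraries ranged from 4.68 to 7.03 TPM over the whole course. With TGFβ it read 5.44, 5.15 and 6.03 TPM at 8 h, 15.4, 17 and 16.6 TPM at 24 h and 21.9, 22.9 and 22 TPM at 48 h, so that most of the distance was already covered at 24 h, where the log2 difference was 1.71 ± 0.07 (SE, adjusted p = 4.05e-14). HMCN1 (ENSG00000143341, chr1:185734391-186190949, plus strand) encodes hemicentin-1, an extracellular protein of many immunoglobulin domains. Its 3 libraries with TGFβ held 36.6, 34.4 and 35 TPM at 24 h and 56.5, 61.3 and 54.2 TPM at 48 h, against 16.4 to 21.1 TPM in all 12 untreated ones. The difference of HMCN1 at 24 h was 1.12 ± 0.09 on the log2 scale (SE, adjusted p = 9.85e-10).

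CYTL1 (ENSG00000170891, chr4:5014586-5019458, minus strand), a small secreted cytokine-like protein, was among the latest. Its libraries read 1.79, 1.53 and 1.42 TPM without and 3.38, 3.25 and 3.48 TPM with TGFβ at 24 h, and 3.22, 2.61 and 3.14 TPM and 14.4, 12.8 and 14.6 TPM at 48 h. The level at 48 h was 3.73 times that at 24 h in the TGFβ arm (TPM plus 0.5), and only the TGFβ group of 48 h reached 5 TPM. At 24 h the log2 difference was 1.02 ± 0.15 (SE, adjusted p = 9.64e-06).

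PTN (ENSG00000105894, chr7:137227341-137343774, minus strand), the heparin-binding growth factor pleiotrophin, stood lower in untreated cells at 48 h (0.514 times the 0 h level) than at 0 h. Its 48 h libraries held 19.4, 19.5 and 18.9 TPM without TGFβ and 49.5, 53.2 and 56.3 TPM with it, while at 24 h they held 35.7, 37.3 and 34.4 TPM and 61.4, 61.6 and 58.2 TPM. The groups did not overlap at either time, and the log2 difference at 24 h was 0.79 ± 0.04 (SE, adjusted p = 5.28e-12). AFP (ENSG00000081051, chr4:73431138-73456174, plus strand), alpha-fetoprotein, a plasma protein of the fetal liver, was called lower at 24 h than at 0 h in both arms, with a log2 difference of -1.06 ± 0.09 with TGFβ (SE, adjusted p = 4.35e-09) and -2.01 ± 0.11 without (adjusted p = 3.48e-12). The libraries of 24 h read 11.6, 14.7 and 11.5 TPM with and 5.92, 5.92 and 4.97 TPM without TGFβ, and those of 0 h 20.0 to 25.2 TPM in both arms together. Most of this signal came from AFP-204, a transcript annotated as a retained intron, which made up 84.3% of the AFP TPM at 48 h with TGFβ and 89.1% without.

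**Figure D4:**
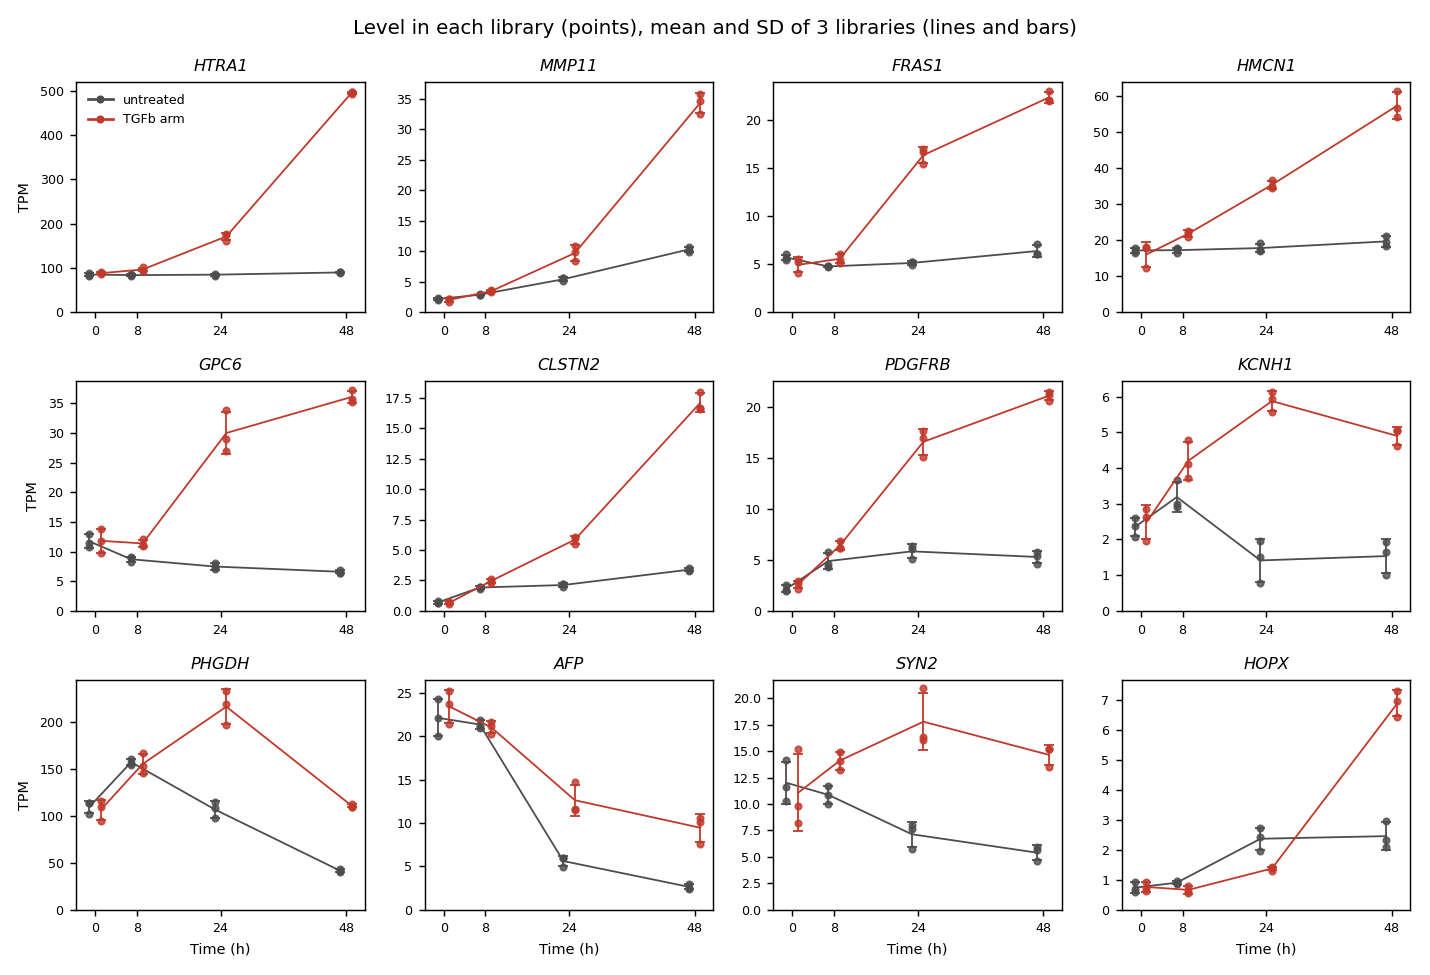
TPM in each library (points), with the mean (line) and SD (bars) of 3 libraries, for 12 members over 0, 8, 24 and 48 h, untreated in grey and TGFβ in red, with a separate vertical axis from 0 for each gene. HTRA1, FRAS1 and HMCN1 stay within a narrow range without TGFβ, MMP11 and CLSTN2 are higher at 48 h than at 0 h in both arms, PHGDH, AFP and SYN2 are lower without TGFβ at 48 h than at 0 h, and HOPX crosses over between 24 h and 48 h.

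Of the 7 members at the cell surface or in membranes, GPC6, CLSTN2 and PDGFRB were far apart already at 24 h. GPC6 (ENSG00000183098, chr13:93226807-94408020, plus strand) encodes glypican-6, a heparan sulfate proteoglycan held to the membrane by a lipid anchor. It read 7.04, 8.07 and 7.33 TPM without and 27, 33.9 and 29.1 TPM with TGFβ at 24 h, and 6.47, 6.46 and 6.87 TPM and 35.8, 35.3 and 37.2 TPM at 48 h. Untreated cells were called lower at 24 h than at 0 h (-0.69 ± 0.09, SE, adjusted p = 1.20e-06) and the TGFβ arm higher (1.31 ± 0.08, adjusted p = 2.69e-11), which gave a difference of 2.03 ± 0.09 on the log2 scale between the arms at 24 h (SE, adjusted p = 4.78e-14).

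CLSTN2 (ENSG00000158258, chr3:139935185-140577397, plus strand), calsyntenin-2, is a cadherin-like membrane protein best known from synapses. From 0.533 to 0.81 TPM in the 6 libraries of 0 h it reached 3.31, 3.5 and 3.35 TPM without and 16.7, 18 and 16.6 TPM with TGFβ at 48 h. At 24 h the libraries held 2.22, 2.21 and 1.95 TPM and 5.49, 6.09 and 5.99 TPM, a log2 difference of 1.91 ± 0.07 (SE, adjusted p = 2.03e-15). A transcript with a retained intron, CLSTN2-202, made up 48.4% of its TPM in untreated cells and 17.5% with TGFβ at 48 h.

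PDGFRB (ENSG00000113721, chr5:150113839-150155872, minus strand), a receptor tyrosine kinase for platelet-derived growth factors and a common marker of fibroblasts and pericytes, was called higher at 24 h than at 0 h in both arms (1.80 ± 0.09 without and 3.32 ± 0.09 with TGFβ, log2, SE; adjusted p = 1.27e-12 and 2.82e-17). Its libraries at 24 h read 5.07, 6.09 and 6.34 TPM and 15.1, 16.9 and 17.7 TPM, and those at 48 h 5.8, 4.63 and 5.42 TPM and 20.6, 21.2 and 21.5 TPM. The arms differed by 1.47 ± 0.07 on the log2 scale at 24 h (adjusted p = 2.82e-13). Around this receptor, in genes chosen after their values were seen, the ligands PDGFA, PDGFB and PDGFC were called higher at 24 h with log2 differences of 1.32 ± 0.06, 2.51 ± 0.10 and 1.26 ± 0.08 (SE; adjusted p = 7.48e-14, 7.69e-15 and 3.68e-11). Their ratios at 8 h were already 2.23, 3.35 and 1.81, above the limit of the members. The other receptor PDGFRA and the ligand PDGFD were called lower, with -0.25 ± 0.06 and -0.37 ± 0.08 (SE; adjusted p = 0.00118 and 9.98e-04). For PDGFRA the TPM did not show this direction, with means at 24 h of 6.93 ± 0.0227 TPM without and 7.18 ± 0.475 TPM with TGFβ (SD, n = 3).

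KCNH1 (ENSG00000143473, chr1:210676823-211134165, minus strand), a voltage-gated potassium channel, was the 1 member whose ratio was higher at 24 h (3.33) than at 48 h (2.65). It read 1.96, 0.781 and 1.5 TPM without and 6.13, 5.56 and 5.94 TPM with TGFβ at 24 h, and 1.02, 1.64 and 1.94 TPM and 5.06, 5.03 and 4.61 TPM at 48 h. Its log2 difference at 24 h was 2.61 ± 0.09 (SE, adjusted p = 9.08e-16), in the group that also carried it past the level limit. FIBCD1 (ENSG00000130720, chr9:130902438-130939286, minus strand), a membrane receptor for acetylated sugars such as chitin, sat at the edge of the test. At 24 h it held 22.5, 16.7 and 20.7 TPM without and 37.1, 21.9 and 31.7 TPM with TGFβ, groups that overlapped, with the library numbered 2 lowest in each arm. Its difference of 0.61 ± 0.18 on the log2 scale (SE, adjusted p = 0.00971) missed the threshold in 26 of 37 alternatives, 18 of them with 1 library left out. The adjusted p was 0.0608 without the TGFβ library numbered 1, 0.0501 without that numbered 3 and 0.0514 without the untreated library numbered 2 of 24 h (log2 differences of 0.47, 0.52 and 0.49), and between 0.0118 and 0.0185 without 1 of 15 other libraries, the untreated ones numbered 1 and 3 of 24 h included. The call was kept without all libraries numbered 2 at 0 h and 24 h. It was also kept in limma voom with a term for the replicate number (log2 difference 0.61, adjusted p = 0.00153). At 48 h, in libraries that chose it, the groups were 13.9, 12.6 and 13.7 TPM and 39.3, 38.4 and 37.8 TPM.

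HLA-DQA1 and HLA-DQB1 encode the alpha and beta chains of HLA-DQ, a class II molecule of the major histocompatibility complex (MHC) that presents peptides to helper T cells. The genes lie 12404 bases apart on chromosome 6 (ENSG00000196735, chr6:32628179-32647062, plus strand; ENSG00000179344, chr6:32659467-32668383, minus strand) and are the 1 pair of members that are close neighbours; the next closest pair, FRAS1 and AFP, is 4601148 bases apart. Class II genes are classically switched on by the coactivator CIITA, which acts through factors bound at the promoter, among them NF-Y at a CCAAT box. The RefSeq promoters of the pair (GRCh38.p14, 250 bases before to 50 after the start that RefSeq gives, which for both genes lies inside the longer GENCODE span above, shown because these neighbours were called higher together) are printed 5′ to 3′ with each CCAAT or its reverse complement ATTGG in capitals.
HLA-DQA1 (chr6:32637156-32637455, plus strand): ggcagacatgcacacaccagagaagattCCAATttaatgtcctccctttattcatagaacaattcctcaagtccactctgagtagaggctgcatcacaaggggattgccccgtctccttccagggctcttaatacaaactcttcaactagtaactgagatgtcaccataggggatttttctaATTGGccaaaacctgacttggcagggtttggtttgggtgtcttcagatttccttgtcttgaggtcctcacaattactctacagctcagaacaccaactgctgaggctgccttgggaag
HLA-DQB1 (chr6:32666608-32666907, minus strand): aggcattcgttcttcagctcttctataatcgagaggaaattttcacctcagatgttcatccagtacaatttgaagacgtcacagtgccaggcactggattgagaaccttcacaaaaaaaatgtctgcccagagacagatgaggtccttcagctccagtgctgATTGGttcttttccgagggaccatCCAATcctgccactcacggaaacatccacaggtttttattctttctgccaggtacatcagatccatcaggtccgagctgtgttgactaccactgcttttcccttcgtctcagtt

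HLA-DQA1 was close to the floor in every untreated library, at 0.306 to 0.524 TPM over the course, and read 1.4, 1.41 and 1.55 TPM with TGFβ at 24 h and 5.03, 4.94 and 5.13 TPM at 48 h. Its log2 difference at 24 h was 0.81 ± 0.17 in counts (SE, adjusted p = 6.65e-04) and 2.05 in length-scaled counts, and the call was lost with the groups compared alone (adjusted p = 0.0233). The transcripts behind this total changed as well: a retained-intron transcript, HLA-DQA1-205, held 0.354 TPM of the untreated mean at 48 h, and the canonical coding transcript HLA-DQA1-201 held 0.00709 TPM there against 2.83 TPM with TGFβ. HLA-DQB1 read 3.67, 3.85 and 3.94 TPM without and 6.36, 6.75 and 6.3 TPM with TGFβ at 24 h, and 4.3, 3.26 and 3.59 TPM and 13.7, 13.2 and 12.6 TPM at 48 h. Its log2 difference at 24 h was 0.81 ± 0.09 (SE, adjusted p = 2.48e-07), and here the coding transcript made up 98.1% of the TPM at 48 h with TGFβ. HLA genes vary between people and resemble one another, so reads can be shared between them or miss the reference, and an antisense gene overlaps 241 bases of HLA-DQB1 exons.

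CIITA, CD74, HLA-DRB1 and HLA-DPA1, other genes of class II presentation chosen after their values were seen, were lower or not called at 24 h. Further class II genes are not shown here. CIITA read 2.92, 2.41 and 2.04 TPM without and 0.39, 0.644 and 0.389 TPM with TGFβ at 24 h and was called lower (-1.64 ± 0.11, log2, SE, adjusted p = 1.72e-10). CD74, the invariant chain that guides class II molecules, was called lower too, with 14.9, 14 and 15.7 TPM against 6.94, 6.47 and 7.23 TPM (-1.11 ± 0.09, adjusted p = 3.65e-09). HLA-DRB1 differed by -0.03 ± 0.08 (adjusted p = 0.799), although at 48 h its libraries read 33.7, 32.7 and 36 TPM without and 45.5, 46.9 and 45.8 TPM with TGFβ and did not overlap, and HLA-DPA1, at under 1 TPM in each library of 24 h, by -0.85 ± 0.35 (adjusted p = 0.0588). In the list of interferon response and antigen presentation genes, 59 were tested at 24 h, of which 29 were called lower, 27 were not called and 3 were called higher, and the pair made up 2 of these 3. The list's median log2 difference was -0.38.

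**Figure D5:**
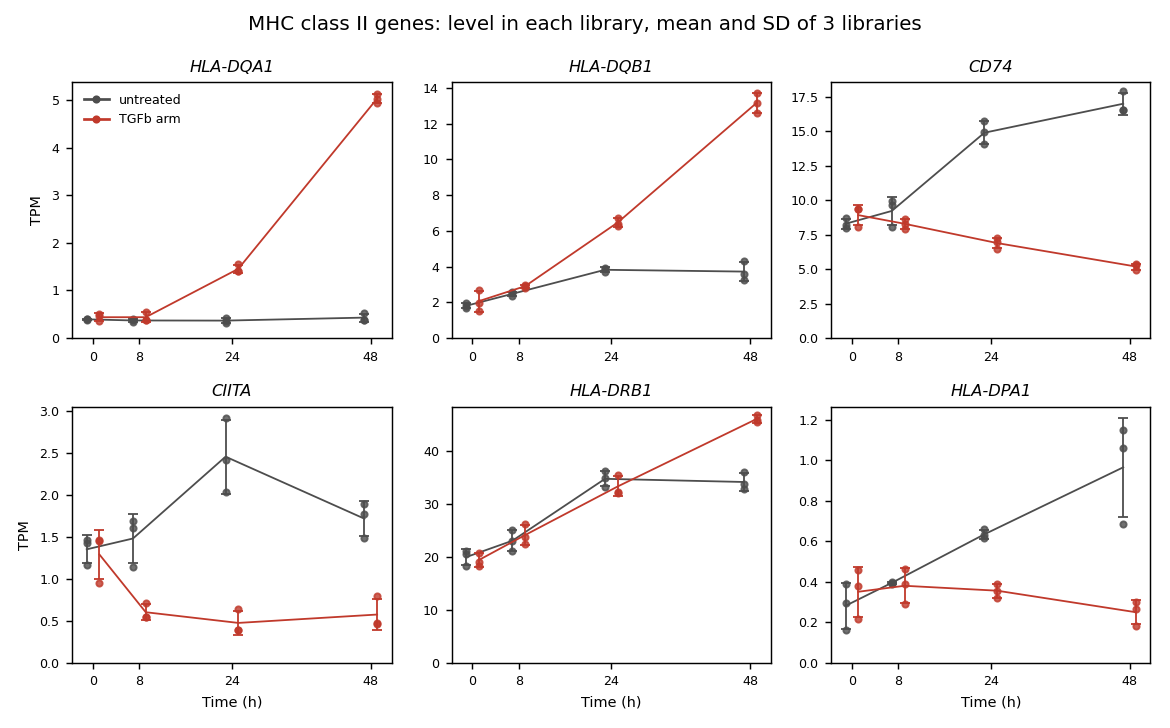
TPM in each library (points), with the mean (line) and SD (bars) of 3 libraries, for HLA-DQA1, HLA-DQB1 and 4 other genes of MHC class II presentation over 0, 8, 24 and 48 h, untreated in grey and TGFβ in red. HLA-DQA1 and HLA-DQB1 are higher with TGFβ at 24 h and 48 h, whereas CD74 and CIITA are lower, and HLA-DRB1 overlaps between the arms at 24 h and is higher with TGFβ at 48 h.

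Among the 8 members that act inside the cell, PHGDH had the highest level. PHGDH (ENSG00000092621, chr1:119648411-119744218, plus strand), phosphoglycerate dehydrogenase, catalyses the first step of serine synthesis from a glycolytic intermediate. It read 115, 97.2 and 108 TPM without and 233, 196 and 219 TPM with TGFβ at 24 h, and 40.7, 40.3 and 43.2 TPM and 109.6, 109.8 and 112 TPM at 48 h. The TGFβ arm thus peaked at 24 h and was within the range of its 0 h libraries (94.5 to 115 TPM) at 48 h, when untreated cells stood lower. At 24 h the log2 difference was 1.05 ± 0.08 (SE, adjusted p = 1.59e-09). The other enzymes of the route, chosen after their values were seen, were called higher at 24 h as well: PSAT1 by 1.41 ± 0.05, PSPH by 0.67 ± 0.04 and SHMT2, which makes glycine from serine, by 0.75 ± 0.06 on the log2 scale (SE; adjusted p = 2.34e-15, 1.51e-11 and 9.22e-10). Their ratios at 48 h were 1.47, 1.21 and 1.23, short of the 2.5 that the members reached.

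GLI1 (ENSG00000111087, chr12:57459785-57472268, plus strand) encodes the transcription factor that is both an effector and a common readout of Hedgehog signalling. Its libraries held 3.74, 3.7 and 2.53 TPM without and 5.28, 4.46 and 5.8 TPM with TGFβ at 24 h, and 1.57, 1.47 and 1.39 TPM and 6.25, 7.5 and 6.5 TPM at 48 h, with a log2 difference at 24 h of 1.05 ± 0.13 (SE, adjusted p = 1.67e-06). Its low TPM was spread over several transcripts, and the canonical GLI1-201 made up 36.9% of it at 48 h with TGFβ. Of other Hedgehog genes, chosen after their values were seen, HHIP, which binds Hedgehog ligands, was called higher (2.47 ± 0.19, adjusted p = 7.95e-10) at a mean of 1.97 ± 0.59 TPM (SD, n = 3), GLI3 and GAS1 were called lower (-0.26 ± 0.07 and -0.84 ± 0.16, adjusted p = 0.00463 and 3.13e-04), and PTCH1, GLI2, SMO and SUFU were not called. The mean of HHIP was lower at 24 h than at 0 h in both arms, from 2.75 to 0.476 TPM without and from 4.02 to 1.97 TPM with TGFβ. PTCH1, the Hedgehog receptor and another common readout, differed by -0.17 ± 0.14 (adjusted p = 0.394). The remaining comparisons with relatives, also chosen after the values were seen, gave no call for HTRA2, HTRA3 and HTRA4, a higher level of CLSTN1 (0.63 ± 0.05, adjusted p = 5.18e-09) and RAP2A (0.49 ± 0.08, adjusted p = 2.69e-05), a lower level of CLSTN3 (-0.30 ± 0.07, adjusted p = 0.00264) and no call for RAP2C at 24 h. At 48 h, not tested, the ratios were 1.84 for HTRA3, 1.14 for HTRA2 and 0.93 for HTRA4. Among the Hedgehog genes not called at 24 h they were 1.48 for SMO, 1.32 for GLI2, 1.14 for SUFU and 0.98 for PTCH1. The 48 h libraries of HTRA3 and of SMO did not overlap between the arms.

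RAP2B (ENSG00000181467, chr3:153162226-153170627, plus strand), a small GTPase of the Ras family with 1 annotated transcript here, showed little spread, with 14.4, 12.6 and 13.4 TPM against 29.6, 27.4 and 26.9 TPM at 24 h and 11, 11.4 and 11.3 TPM against 30.4, 30.2 and 29.8 TPM at 48 h. Its log2 difference at 24 h was 1.08 ± 0.05 (SE, adjusted p = 4.62e-13), and its ratio at 8 h, 1.297, was the closest to the limit.

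HOPX (ENSG00000171476, chr4:56647989-56681877, minus strand), a small homeodomain protein that does not bind DNA, was the exception in time. At 24 h its libraries read 1.97, 2.71 and 2.42 TPM without and 1.41, 1.4 and 1.31 TPM with TGFβ, so that every TGFβ library lay below every untreated one. The log2 difference was -0.67 ± 0.16 (SE, adjusted p = 0.00213), a call that was lost without the TGFβ library numbered 3 (adjusted p = 0.0115) or the untreated library numbered 2 of 24 h (adjusted p = 0.0116), without all libraries numbered 2 at 0 h and 24 h (-0.56, adjusted p = 0.0153), and with scaling to 4 reference genes (-0.32, adjusted p = 0.097). At 48 h the order was the opposite, with 2.96, 2.32 and 2.08 TPM and 6.96, 6.42 and 7.3 TPM. HOPX reached 5 TPM in the TGFβ group of 48 h alone and had 27 to 254 estimated counts per library.

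SYN2, TCP11L2 and FAM13C complete the group. SYN2 (ENSG00000157152, chr3:12004388-12192032, plus strand), synapsin-2 of synaptic vesicles, read 7.97, 7.68 and 5.76 TPM without and 16.1, 20.9 and 16.4 TPM with TGFβ at 24 h (1.18 ± 0.10, log2, SE, adjusted p = 4.67e-09). Of its TPM at 48 h with TGFβ, 68.7% came from SYN2-201, a transcript without a defined coding sequence. The gene TIMP4, which lies inside SYN2 on the other strand and shares 170 bases of exon with it, was itself called higher at 24 h (1.13 ± 0.06, adjusted p = 8.35e-13); the strand setting of the libraries is not given in the sources used here, and the part of TIMP4 reads in the SYN2 value was not tested. TCP11L2 (ENSG00000166046, chr12:106301929-106347003, plus strand) was called higher at 24 h than at 0 h in both arms (0.83 ± 0.07 without and 1.96 ± 0.07 with TGFβ, log2, SE; adjusted p = 2.77e-09 and 1.33e-15). It read 17.2, 20.6 and 16.1 TPM and 30.9, 30.6 and 31.7 TPM at 24 h, and its exons overlap those of CKAP4 on the other strand by 220 bases, a gene that was also higher (1.01, adjusted p = 1.39e-14). FAM13C (ENSG00000148541, chr10:59246130-59363181, minus strand) held 5.55, 7.1 and 6.79 TPM and 9.35, 9.42 and 9.26 TPM at 24 h (0.66 ± 0.08, adjusted p = 1.04e-06), and at 48 h 6.14, 4.77 and 5.23 TPM and 15.4, 15.9 and 15.6 TPM, spread over 20 annotated transcripts of which the leading one, FAM13C-214, made up 39%. PHYHIPL on the other strand overlaps 1608 bases of FAM13C exons (23.8%), and a pseudogene, IPO8P1, overlaps 2018 bases of KCNH1 exons (15.7%) on the same strand.

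Within the TGFβ arm, 19 of 22 members were called higher at 24 h than at 0 h, where 24.3% of all tested genes were, and AFP was called lower, as were 22.7% of all genes. FIBCD1 and HOPX were not called (0.43 ± 0.18 and 0.60 ± 0.20, log2, SE, adjusted p = 0.0456 and 0.0135). Within untreated cells, 5 members were called lower at 24 h than at 0 h, GPC6, AFP, KCNH1, RAP2B and SYN2, where 23.7% of all tested genes were. Another 8, CLSTN2, PDGFRB, GLI1, HLA-DQB1, MMP11, FAM13C, TCP11L2 and HOPX, were called higher in untreated cells, where 23.8% of all genes were. These are 22.7% and 36.4% of the members, the first close to the share of all genes. With scaling to 4 reference genes, 9 members were called lower and 7 higher in untreated cells, beside 35.2% and 14.1% of all genes, and in the TGFβ arm 21 were called higher and 1 lower, beside 32.6% and 13.3% of all genes. The signed change from 0 h to 24 h was higher with TGFβ than without it in 18 of 22 members by the test of that difference, beside 9.56% of all tested genes. For AFP this was a smaller loss with TGFβ. These comparisons share their 24 h libraries with the comparison of the arms, and the 0 h and 24 h libraries of an arm carry different codes in their names.

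From 24 h to 48 h the members parted. In the TGFβ arm, 5 had a higher mean at 24 h than at 48 h, namely AFP, PTN, KCNH1, PHGDH and SYN2, each of which also stood below 2 times its 0 h level at 48 h. In 12 members the ratio of the arms at 48 h was at least 1.5 times that at 24 h, with HOPX, HTRA1, HLA-DQA1 and CYTL1 among them. The ratio of HTRA1 went from 2.02 at 24 h to 5.51 at 48 h, whereas that of FRAS1 was 3.0 and 3.33. At 8 h, 3 ratios were below 1, those of AFP, PHGDH and HOPX. In 14 of 22 members, RAP2B, KCNH1 and PDGFRB among them, every TGFβ library of 8 h already lay above every untreated one. The rule used these 8 h libraries, and the share of all genes with such a separation at 8 h was not counted. The count of 14 is therefore a description alone.

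The limits were not placed in a gap. Just inside the 8 h limit were RAP2B (1.297) and GPC6 (1.29), and just outside it MATN3 (1.301) and CDKN1A (1.315), with ratios at 48 h of 3.28 and 2.97. Just inside the 48 h limit was HOPX (2.502), and just outside it CST1 (2.49) and PLEKHO1 (2.46). Of the 230 genes past the level limit with a ratio of at least 2.5 at 48 h, 124 already had a ratio of at least 2 at 8 h. Side by side, with both sets chosen on the 8 h and 48 h values, the median ratio at 24 h was 1.99 for the members and 4.30 for these 124 early and sustained genes. Called higher at 24 h were 95.5% of the members and 98.4% of the early genes. The mean of at least 2 times the 0 h level at 48 h in the TGFβ arm was reached by 63.6% of the members, 90.3% of the early genes and 10.1% of all 11317 genes past the level limit. In untreated cells at 0 h the median level was 8.16 TPM for the members, 9.30 TPM for the early genes and 24.0 TPM for all genes past the limit.

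Of the 22 members, 10 fell in gene lists of pathways and functions. The TGFβ pathway list held 0 members, which is close to what the share of 22 in 11317 genes gives for a list of this size, and at 24 h 25 of its 63 tested genes were called higher and 15 lower. Of 101 matrix and trypsin-like proteases, 33 were called higher and 15 lower (median log2 difference 0.10), with HTRA1 and MMP11 as members. Of 138 growth factors and receptors, 29 were called higher and 37 lower (median -0.05), with PTN and PDGFRB as members. FRAS1 was the 1 member among 21 laminin, fibronectin and basement membrane genes (7 higher, 4 lower), GPC6 among 68 matricellular and proteoglycan genes (24 and 14), KCNH1 among 199 ion channels (41 and 35) and SYN2 among 69 neuronal genes (18 and 14). The members lay on 11 chromosomes, with 4 of them on chromosome 4.

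Promoters were available for 19 members, and GLI1 and HMCN1 were among those with no entry. In the 300 bases around the RefSeq start, which can lie inside the GENCODE span printed for a gene, as it does for HTRA1, on both strands, CCAAT or ATTGG was found in 8 of 19 members (42.1%) and in 39.7% of 27305 genes with an entry. The Smad box CAGACA was found in 5 of 19 (26.3%) and in 19.9% of all genes, among them both HLA-DQ genes. The AP-1 motif TGANTCA stood in the promoter of PTN alone and the CRE motif TGACGTCA in that of CLSTN2 alone (5.26% each, beside 9.37% and 2.25% of all genes). The E-box CACCTG was found in 3 (15.8%, beside 24.1%) and TATAAA in 3 (15.8%, beside 14.0%), and the Smad palindrome GTCTAGAC and the TEAD motif GGAATG in 0 of 19, beside 0.256% and 16.7% of all genes. The promoter of HTRA1, the member with the highest TPM at 48 h, is shown with its 1 match, CCAAT, in capitals; none of the motifs searched contains another, and the matches describe letters, not bound sites.
HTRA1 (chr10:122461303-122461602, plus strand): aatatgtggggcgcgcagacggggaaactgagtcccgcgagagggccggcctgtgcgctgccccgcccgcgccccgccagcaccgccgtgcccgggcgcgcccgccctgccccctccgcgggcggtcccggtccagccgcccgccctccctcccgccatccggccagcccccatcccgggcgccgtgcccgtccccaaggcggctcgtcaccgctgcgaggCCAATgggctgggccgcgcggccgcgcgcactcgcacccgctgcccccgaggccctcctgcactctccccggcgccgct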

How the data were processed

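RNA-Seq of 24 SK-MES-1 libraries was analysed from the transcript tables. Per the labels and the study's methods, the authors pseudoaligned the reads with kallisto 0.43.0 to GRCh38 transcripts (Ensembl release 79) and deposited estimated counts and TPM values per transcript, both used here. The deposited effective lengths (unit other) served for length-scaled counts alone. Transcripts were matched by Ensembl ID to GENCODE 44 (GRCh38) and summed per gene; unmatched transcripts were left out. Estimated counts were rounded and genes with at least 10 counts in at least 3 libraries were tested with limma 3.58.1 voom (TMM factors from edgeR 4.0.16, 1 mean per arm and time, all 24 libraries), the tool of the study, which took F-values over the course where single contrasts were tested here, with Benjamini-Hochberg adjustment over 17453 genes and a threshold of 0.01. DESeq2 1.42.0 and edgeR quasi-likelihood were alternatives. The scripts were tested on simulated data.

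The members and gene lists were chosen with earlier results of these data known. Library values are given for members with the lowest adjusted p at 24 h, the largest 48 h ratios, the highest levels, list membership, the weakest calls or a place beside a limit, and for others where a sentence needs them; roles and related genes were chosen after values were seen. The replicates are biological per the labels; separate cultures are not described, so p-values measure the spread between these libraries. Promoters are RefSeq entries (GRCh38.p14). 1 member is counted in all totals but is otherwise not reported here.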

Additional observations from a re-analysis of the deposited data

Results flagged for a closer look

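The difference between the arms at 24 h was set against that at 0 h in 1 model over all libraries, as the test of whether the change from 0 h to 24 h differed with TGFβ (limma voom, adjusted p below 0.01). It passed in 18 of the 22 members, beside 9.56% of all tested genes in that direction, each with a higher signed change in the TGFβ arm. For AFP this was a smaller loss, and for GPC6, KCNH1, RAP2B and SYN2 a gain beside a loss in untreated cells. The values are log2 differences of the differences. Among secreted and matrix proteins they were 0.97 for HTRA1, 0.95 for MMP11, 1.90 for FRAS1, 1.32 for HMCN1, 1.22 for CYTL1, 0.83 for PTN and 0.94 for AFP. At the cell surface they were 2.01 for GPC6, 1.99 for CLSTN2, 1.53 for PDGFRB, 2.58 for KCNH1 and 0.69 for HLA-DQB1. Inside the cell they were 1.21 for GLI1, 1.05 for PHGDH, 1.02 for RAP2B, 1.32 for SYN2, 1.13 for TCP11L2 and 0.75 for FAM13C. HLA-DQA1, FIBCD1 and HOPX were among those that did not pass, with 0.87 ± 0.25, 0.70 ± 0.25 and -0.73 ± 0.27 (SE; adjusted p = 0.0142, 0.0511 and 0.0576). KCNH1 passed the level limit through the TGFβ libraries of 24 h, so its value is not independent of its selection.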

How the results depend on the processing

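Leaving out each library in turn gave 20 to 21 members called higher at 24 h, 18 to 20 in the TGFβ arm from 0 h to 24 h, 5 to 6 called lower in untreated cells and 19 to 25 members found by the rule. The other alternatives (edgeR, DESeq2, 3 other scalings, length-scaled counts, log2(TPM + 0.1) and log2(TPM + 0.5), the count filter, the groups compared alone) gave 18 to 21 members at 24 h, and 14 with a 2-fold limit added; at 0 h they gave 0. In untreated cells 9 members were called lower with scaling to 4 reference genes and 2 with a 2-fold limit added. The rule found 44 genes with a group mean of at least 1 TPM, 58 with a 48 h ratio of at least 2, 11 with one of at least 3, 14 with an 8 h ratio of at most 1.2 and 46 with one of at most 1.5. It shared 13 of 17 genes with the members on TMM-scaled counts and 15 of 20 on protein-coding transcripts only, the latter chosen after the data were seen. At 24 h, 18 members kept call and direction in all 37 alternatives and 0 reversed. FIBCD1 lost its call in 26, HOPX in 5 and HLA-DQA1 in 1 (the groups compared alone, 0.0233); the cause was not tested.

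Libraries share replicate numbers across groups, but the numbers mark no stated batch. Deviations of same-numbered libraries of the arms correlated at 0.144, 0.301 and 0.0886 at 24 h and 0.203, 0.296 and 0.0718 at 0 h. All were positive, with the highest at each time for the libraries numbered 2. Between 0 h and 24 h they ran from 0.00963 to 0.229 in untreated cells and from 0.0728 to 0.383 with TGFβ. The main test had no term for the replicate number, and whether the numbers mark shared handling was not tested. With a replicate block 21 members were called higher at 24 h and 19 in the TGFβ arm, beside 17.1% of all tested genes at 24 h. Depth limits members with few counts, such as HOPX with 27 to 254 and CYTL1 with 32 to 378 counts per library.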
